A study of Homo sapiens with 12 samples.

Results

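The transcripts of the G1 cyclins and of the kinases they activate were examined in 22Rv1 cells, an established line of human prostate carcinoma. The genes were CCND1, CCND2 and CCND3 (the D-type cyclins), CDK4 and CDK6 (the kinases of the D-type cyclins), CCNE1 and CCNE2 (the E-type cyclins) and CDK2 (the kinase of the E-type cyclins). They were chosen by symbol, and all 8 were found among the 61860 genes of both deposited count tables.

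D-type cyclins are made when growth signals reach a cell, and with CDK4 or CDK6 they phosphorylate the retinoblastoma protein RB, which otherwise keeps E2F transcription factors inactive. E2F factors in turn drive the E-type cyclin genes, and cyclin E with CDK2 phosphorylates RB further and prepares DNA replication. CDK4/6 inhibitors act on the first of these steps, and D-type cyclin levels in prostate cancer cells are known to respond to growth factor signalling.

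The study is concerned with RB phosphorylation, the transcription factor ETS1 and CDK4/6 inhibition. It holds 12 libraries of total RNA from cells grown in medium with serum. Of these, 3 are from cells given siRNA against ETS1 (ETS1 siRNA) and 3 from the controls of that experiment (ETS1 control). A further 3 are from cells given siRNA against ZNF783, a zinc finger gene (ZNF783 siRNA), and 3 from that experiment's own controls (ZNF783 control). The labels name no drug, no siRNA sequence and no time of harvest. Nothing in them shows that replicates were grown separately, so the spread between libraries of a group may be technical only. Every p-value rests on at most 3 libraries per group, and edgeR also draws on the spread of other genes.

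Total counts ran from 13518177 to 48996691 per library, and a floor of 3 counts for an undetected transcript corresponds to 0.0612 to 0.222 CPM (counts scaled to a library total of 1000000). ETS1 itself had 0 to 3 counts in every library of all 4 groups, so its knockdown could not be measured. ZNF783 fell with its own siRNA (log2 fold change -0.31, SE 0.055, adjusted p = 2.5e-05, edgeR). With ETS1 siRNA its log2 fold change was -0.38 (SE 0.15, adjusted p = 0.258), at 12.5, 18.7 and 18.5 CPM against 21.0 to 22.3 CPM in the ETS1 controls, and the groups do not overlap. ETS1 siRNA replicate 1 stood apart: its counts differed from those of replicates 2 and 3 with a chi-square per degree of freedom of 40.3 and 38.9, against 1.36 to 2.93 for all other pairs within a group. Results of the ETS1 experiment are therefore given with and without it. The luminal prostate markers HOXB13 (160 to 230 CPM) and KRT8 (403 to 657 CPM) were present in every library, while the T cell marker CD3E was at 0 counts in all 12. The summed level of 6 luminal markers was 843 to 1020 CPM with ETS1 siRNA against 1120 to 1160 CPM in its controls, and 1060 to 1100 CPM with ZNF783 siRNA against 1200 to 1240 CPM in its controls. The 3 neuroendocrine markers, nearly all of it the vesicle gene SYP, summed to 40.2 to 55.3 CPM with ETS1 siRNA against 67.8 to 72.9 CPM in its controls, and to 54.1 to 59.3 CPM with ZNF783 siRNA against 67.1 to 74.4 CPM in its controls. INSM1, a defining neuroendocrine factor, was at 0 to 0.177 CPM. The 3 fibroblast markers, mainly COL1A1, summed to 13.2 to 15.1 CPM with ETS1 siRNA against 14.2 to 15.9 CPM in its controls, and to 23.2 to 24.8 CPM with ZNF783 siRNA against 26.4 to 28.3 CPM in its controls. Basal, leukocyte and endothelial markers each summed to at most 0.492 CPM. The part of these shifts in the results was not tested.

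Cyclin D1 was by far the most abundant G1 cyclin transcript. On the scale of CPM per kilobase of annotated exon, the level of CCND1 (ENSG00000110092, GRCh38 chromosome 11, 69641087 to 69654474, plus strand) was 560 ± 8.46 with ETS1 siRNA, 662 ± 9.71 in the ETS1 controls, 686 ± 10.6 with ZNF783 siRNA and 681 ± 4.49 in the ZNF783 controls (SD, n = 3 each). It thus made up 98.2% to 98.6% of the D-type cyclin counts per kilobase in each of the 4 groups. CCND3, which encodes cyclin D3 (ENSG00000112576, chromosome 6, 41934933 to 42050357, minus strand), stood at 8.28 ± 0.564, 9.19 ± 0.0807, 10.2 ± 0.137 and 12.6 ± 0.378 CPM per kilobase in the same 4 groups. Cyclin D2 was not detected: CCND2 (ENSG00000118971, chromosome 12, 4273772 to 4305350, plus strand) had 2, 1 and 0 counts with ETS1 siRNA and 2, 1 and 3 in the ETS1 controls. With ZNF783 siRNA it had 0, 1 and 1 counts, and 0, 1 and 1 in the ZNF783 controls. All 12 values lie at or under the floor, so CCND2 was not tested, and 7 of the 8 genes entered each test.

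The kinases lay between the cyclins in level. On the same per-kilobase scale CDK2 (ENSG00000123374, chromosome 12, 55966769 to 55972784, plus strand) stood at 46.3 ± 4.27 with ETS1 siRNA, 48.1 ± 0.674 in the ETS1 controls, 42.8 ± 0.741 with ZNF783 siRNA and 40.4 ± 1.16 in the ZNF783 controls. CDK4 (ENSG00000135446, chromosome 12, 57747727 to 57756013, minus strand) stood at 37.3 ± 10.6, 46.5 ± 1.34, 39.3 ± 1.05 and 43.3 ± 1.83 CPM per kilobase in these groups. The libraries of CDK2 and CDK4 overlapped in both groups of the ETS1 experiment, and their order differed between the 2 groups of the ZNF783 experiment. CDK6 (ENSG00000105810, chromosome 7, 92604921 to 92836594, minus strand) came next at 27.6 ± 4.75, 22.9 ± 0.433, 24.1 ± 0.241 and 22.5 ± 0.993 CPM per kilobase, overlapping CDK4 only with ETS1 siRNA.

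The E-type cyclins were among the lowest of the detected genes. CCNE2 (ENSG00000175305, chromosome 8, 94879770 to 94896678, minus strand) had a level of 12.3 ± 2.47 CPM per kilobase with ETS1 siRNA, 9.95 ± 0.393 in the ETS1 controls, 9.44 ± 0.101 with ZNF783 siRNA and 8.57 ± 0.314 in the ZNF783 controls. CCNE1 (ENSG00000105173, chromosome 19, 29811898 to 29824308, plus strand) had 6.49 ± 0.342, 5.97 ± 0.361, 5.37 ± 0.364 and 6.07 ± 0.274 CPM per kilobase. CCNE2 exceeded CCND3 in both groups of the ETS1 experiment and lay below it in both groups of the ZNF783 experiment, with no overlap between the libraries of the 2 genes in any group.

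Shared exons limit these levels. Of the annotated exon bases of CDK4, 43.2% also belong to TSPAN31, a tetraspanin gene on the opposite strand, and 37.1% of those of CCNE2 are shared, nearly all with the opposite-strand integrator gene INTS8. The share was 16.8% for CDK2, 13.8% for CCND2, 10.3% for CCND1 and under 1% for CCND3, CDK6 and CCNE1. Counting ignored strand, so reads in those bases cannot be told apart by gene. With the length taken without shared bases, a setting added after the data were seen, CDK4 stood at 65.7 ± 18.7 CPM per kilobase with ETS1 siRNA, 81.8 ± 2.37 in the ETS1 controls, 69.1 ± 1.85 with ZNF783 siRNA and 76.3 ± 3.22 in the ZNF783 controls. Its mean then lay above that of CDK2 in all 4 groups, so the order of CDK2 and CDK4 depends on this choice. The order of CCNE2 and CCND3 in the ZNF783 experiment depends on it too: CCNE2 then stood at 15.02 ± 0.161 and CCND3 at 10.2 ± 0.137 CPM per kilobase with ZNF783 siRNA, and at 13.6 ± 0.499 and 12.7 ± 0.379 in the ZNF783 controls, where the libraries of the 2 genes overlap.

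**Figure D1:**
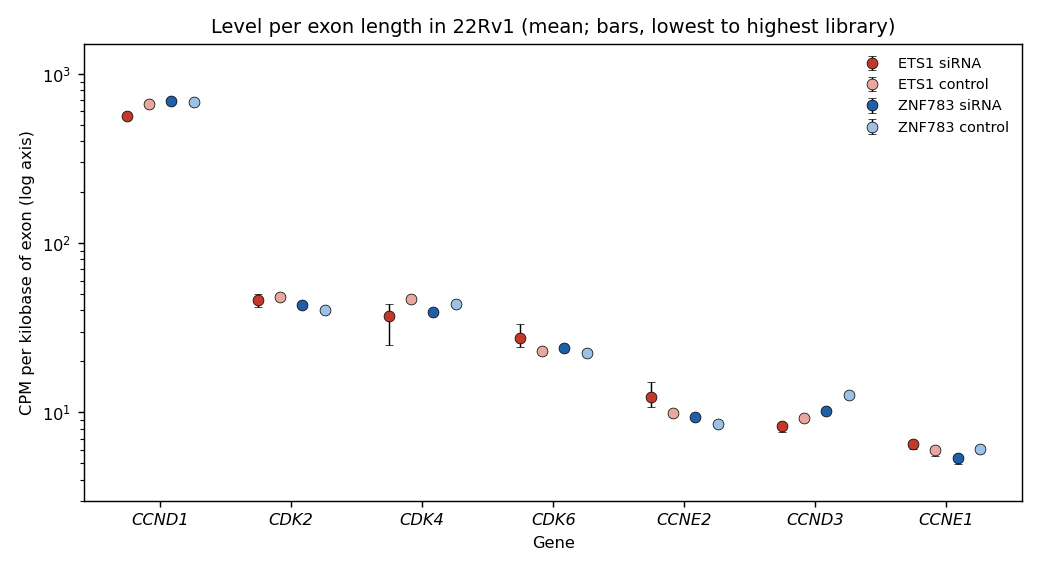
Level of the 7 detected genes in CPM per kilobase of exon (log axis), as the mean of the 3 libraries of each group with bars from the lowest to the highest library. CCND1 lies at 560 to 686, the 3 kinases at 22.5 to 48.1 and CCND3, CCNE1 and CCNE2 at 5.37 to 12.6; CCND2, which was not detected, is left out.

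With ETS1 siRNA, CCND1 was lower and CDK6 and CCNE2 were higher in all 3 libraries than in any control, but no gene of the 8 passed the test over all 6 libraries. CCND1 measured 2664, 2711 and 2745 CPM (scaled by TMM, the trimmed mean of M values) in ETS1 siRNA replicates 1 to 3, against 3250, 3165 and 3175 CPM in the ETS1 controls. The groups do not overlap, and replicate 1, which stood apart over all genes, lies beside its replicates here. The estimated log2 fold change is -0.24 (SE 0.044, adjusted p = 0.103, edgeR's quasi-likelihood test with Benjamini-Hochberg adjustment), or -15.3% on the linear scale of the fit. CCND3 measured 44.3, 49.4 and 50.4 CPM with ETS1 siRNA, against 53.5, 53.7 and 52.8 CPM in its controls. All 3 siRNA libraries lie below the controls, with replicate 1 lowest, with a log2 fold change of -0.15 (SE 0.068, adjusted p = 0.296). RNA here comes from whole cultures, so fewer cells in one phase of the cell cycle and less RNA per cell cannot be told apart.

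Replicate 1 departed from its replicates for both kinases of the D-type cyclins. CDK4 measured 79.4, 136 and 139 CPM with ETS1 siRNA, against 147, 143 and 151 CPM in its controls. Replicate 1 lies far below both other siRNA libraries, which themselves lie only just below the controls, giving a log2 fold change of -0.31 (SE 0.195, adjusted p = 0.397). CDK6 ran the other way at 405, 312 and 298 CPM with ETS1 siRNA, against 281, 287 and 276 CPM in its controls, with replicate 1 the highest of all 12 libraries. Its log2 fold change was 0.27 (SE 0.114, adjusted p = 0.277). TSPAN31, which shares exons with CDK4, had a log2 fold change of -0.28 (SE 0.105, adjusted p = 0.244), and its part in the CDK4 value was not tested.

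Of the E-type cyclins, CCNE2 measured 66.8, 47.3 and 48.5 CPM with ETS1 siRNA, against 43.6, 45.6 and 42.1 CPM in its controls. All siRNA libraries lie above the controls, replicate 1 far above, for a log2 fold change of 0.31 (SE 0.134, adjusted p = 0.287). INTS8, which shares exons with CCNE2, had 0.15 (SE 0.057, adjusted p = 0.246), and its part in the CCNE2 value was not tested. CCNE1, with 361 to 850 counts per library the thinnest of the tested genes in this experiment, measured 15.6, 17.2 and 16.9 CPM against 15.9, 14.2 and 15.6 CPM. The groups overlap, with a value of 0.12 (SE 0.082, adjusted p = 0.425). CDK2, the partner kinase, measured 162, 185 and 195 CPM with ETS1 siRNA, against 190, 185 and 186 CPM in its controls. The siRNA libraries span the controls, and the value was -0.05 (SE 0.074, adjusted p = 0.699).

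Over all 6 libraries of the ETS1 experiment, 0 of the 7 tested genes were called at an adjusted p below 0.05. The background was 9 of 19542 genes, or 0.0461% (0.0256% higher, 0.0205% lower). In the same edgeR fit an unadjusted p below 0.05 was found for 3535 genes (18.1%), and among the 7 for CCND1 alone. DESeq2 called 734 genes, and of the 7 only CCND1 (adjusted p = 0.000873). The siRNA and control libraries did not overlap for 5 of the 7 genes, 2 above and 3 below the controls, against 35.3% of all genes tested (17.5% above, 17.8% below). Without ETS1 siRNA replicate 1, 5 of the 7 were called, against a background of 23.0% (4649 of 20237 genes, 9.96% higher and 13.0% lower). These calls rest on 2 siRNA libraries against 3 controls. CCND1 (-0.24, SE 0.026, adjusted p = 1.6e-10), CCND3 (-0.10, SE 0.039, adjusted p = 0.0469) and CDK4 (-0.11, SE 0.032, adjusted p = 0.00892) then fell. CDK6 (0.11, SE 0.029, adjusted p = 0.00265) and CCNE2 (0.13, SE 0.042, adjusted p = 0.0199) then rose, while CDK2 (0.01, adjusted p = 0.853) and CCNE1 (0.15, adjusted p = 0.067) were not called. Genes that share exon bases with CDK4, CCNE2 and CCND1 moved the same way without ETS1 siRNA replicate 1. TSPAN31, which overlaps CDK4, had -0.19 (SE 0.055, adjusted p = 0.00687, edgeR). INTS8, which overlaps CCNE2, had 0.11 (SE 0.033, adjusted p = 0.00958). LTO1, which overlaps CCND1, had -0.14 (SE 0.044, adjusted p = 0.0178). The part of these overlapping genes was not tested. CCND1 kept its size with and without that library, whereas the log2 fold changes of CDK4, CDK6 and CCNE2 were each more than 2 times as large with it.

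The trend of the measured levels with GC content varied between libraries. Across 10253 genes averaging 10 CPM or more, the log2 deviation of a library from the mean of its own controls had a rank correlation with GC content (Spearman's rho) of -0.612, -0.551 and -0.521 in the 3 ETS1 siRNA libraries and of -0.521 to 0.45 in the ETS1 controls. Genes within a library are not independent replicates, so this is a description. Across 10452 genes it was -0.507, -0.489 and -0.508 with ZNF783 siRNA and ran from -0.348 to 0.475 in the ZNF783 controls. The 2 groups of the ZNF783 experiment thus did not overlap in this trend, whereas 1 ETS1 control had the same value as an ETS1 siRNA library. The controls set the mean used here, so their own trends largely offset one another by construction. A rank correlation also does not give the size of a trend. Taking the longest transcript of each gene, CCNE2 (36.9% GC) and CDK6 (39.5%) are the poorest in GC among the 8 genes. CDK4 (53.6%) and CCND3 (56.2%) are the richest, with CCND1 at 50.3%. After correcting for GC content and gene length, without ETS1 siRNA replicate 1, CCND1 still fell (-0.20, adjusted p = 1.5e-11, edgeR) and CCNE1 rose (0.22, adjusted p = 0.00728). CCND3 (-0.03), CDK4 (-0.04), CDK6 (0.04) and CCNE2 (0.03) were then not called, at adjusted p between 0.241 and 0.687. With the correction over all 6 libraries of the ETS1 experiment, none of the tested genes among the 8 was called, CCND1 included.

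**Figure D2:**
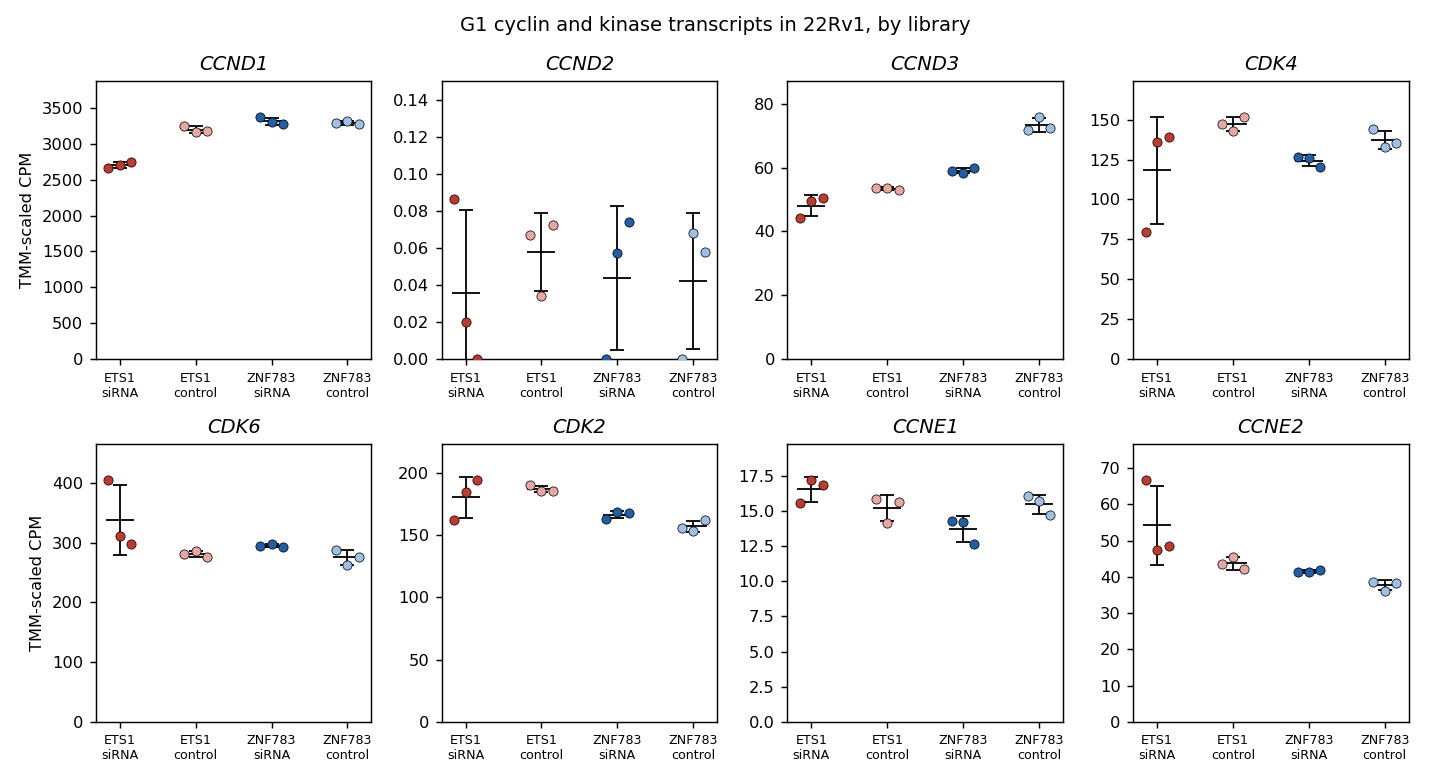
TMM-scaled CPM of each of the 8 genes in every library (points), with the mean and SD of each group (bars), on axes that start at 0. ETS1 siRNA replicate 1 is the low point of CDK4 (79.4) and the high point of CDK6 (405) and CCNE2 (66.8), whereas the 3 CCND1 values of that group lie together (2664 to 2745) below their controls.

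With ZNF783 siRNA, cyclin D3 and CDK4 transcripts fell and those of CDK6, CDK2 and cyclin E2 rose, by 0.08 to 0.31 on the log2 scale in either direction, while cyclin D1 did not pass the test. CCND3 measured 59.0, 58.2 and 59.8 CPM with ZNF783 siRNA, against 71.7, 75.8 and 72.3 CPM in its controls. The 2 groups lie well apart, and CCND3 fell by 19.5% (log2 fold change -0.31, SE 0.041, adjusted p = 8.9e-08, edgeR). CCND1 measured 3371, 3299 and 3272 CPM, against 3285, 3314 and 3272 CPM in its controls. These groups overlap throughout, for a log2 fold change of 0.01 (adjusted p = 0.785). Its approximate 95% interval, taken from the SE by the normal distribution, ran from -0.03 to 0.05.

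CDK4 measured 127, 126 and 121 CPM with ZNF783 siRNA, against 144, 133 and 135 CPM in its controls. All siRNA libraries lie below the controls, and CDK4 fell by 9.17% (-0.14, SE 0.033, adjusted p = 0.0014, edgeR). TSPAN31 stood at -0.15 (SE 0.073, adjusted p = 0.135) in the same libraries, and its part in the CDK4 value was not tested. CDK6 measured 294, 299 and 293 CPM, against 287, 263 and 276 CPM in its controls. The siRNA libraries lie together just above the highest control, and CDK6 rose by 7.14% (0.10, SE 0.029, adjusted p = 0.00731).

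CCNE2 measured 41.3, 41.2 and 42.0 CPM with ZNF783 siRNA, against 38.6, 36.1 and 38.4 CPM in its controls. It rose by 10.0% (0.14, SE 0.050, adjusted p = 0.0358, edgeR), with no overlap between the groups. INTS8 stood at 0.07 (SE 0.036, adjusted p = 0.128) in the same libraries, and its part in the CCNE2 value was not tested. CCNE1 measured 14.3, 14.2 and 12.6 CPM, against 16.04, 15.7 and 14.7 CPM. All siRNA libraries lie below the controls, on 171 to 323 counts per library, but the value of -0.16 (SE 0.080, adjusted p = 0.137) was not called. CDK2 measured 163, 168 and 168 CPM with ZNF783 siRNA, against 156, 153 and 162 CPM in its controls. The gap to the highest control is narrow, and CDK2 rose by 5.84% (0.08, SE 0.031, adjusted p = 0.0439).

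Thus 5 of the 7 tested genes were called with ZNF783 siRNA, 3 higher and 2 lower. The background was 25.1% of 17630 genes, 11.3% higher and 13.8% lower. Libraries of the 2 groups did not overlap for 6 of the 7, 3 above and 3 below the controls, against 38.2% of all genes tested (18.3% above, 19.8% below). The call of CCND3 held under all 9 other settings and without any 1 library; that of CDK4 failed only in the fit of all 12 libraries together (-0.15, adjusted p = 0.675). When GC content and length were corrected for, CCND3 (-0.25, adjusted p = 1.5e-06), CDK4 (-0.09, adjusted p = 0.0367) and CDK2 (0.11, adjusted p = 0.00365) were called, and CDK6 (0.02, adjusted p = 0.66) and CCNE2 (0.06, adjusted p = 0.444) were not. Leaving out ZNF783 control replicate 2 ended the calls of CDK6, CDK2 and CCNE2, leaving out ZNF783 siRNA replicate 2 or 3 those of CDK2 and CCNE2, leaving out ZNF783 siRNA replicate 1 that of CCNE2, and leaving out ZNF783 control replicate 1 that of CDK2.

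**Figure D3:**
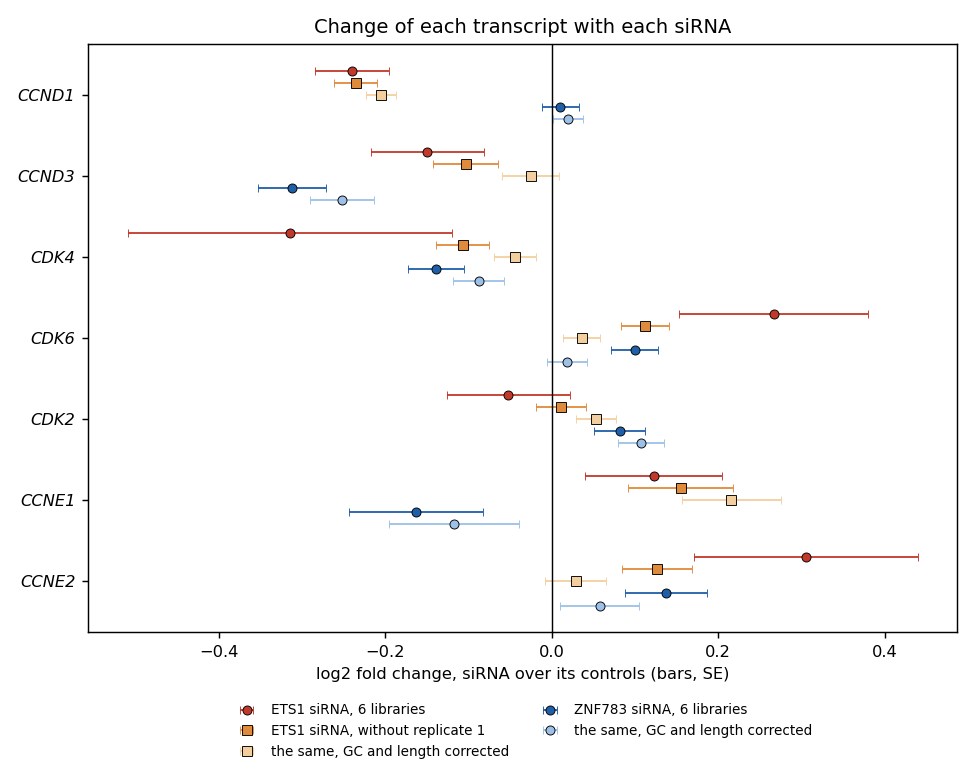
Log2 fold change of the 7 tested genes, siRNA over its own controls, with the SE as bars. Circles in red and dark blue are the 6 libraries of each experiment, orange squares the ETS1 experiment without ETS1 siRNA replicate 1, and pale symbols the values after the GC and length correction. CCND1 stays near -0.2 in the 3 ETS1 settings and near 0 in the ZNF783 settings, while CDK6 and CCNE2 move towards 0 with the correction.

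The effects of the 2 siRNAs were compared in 1 fit of all 12 libraries, as the ETS1 effect minus the ZNF783 effect. Each siRNA was used in its own experiment, so a difference between siRNAs cannot be told apart from one between experiments. This fit also pooled unequal spreads. The common biological coefficient of variation was 0.107 in the ETS1 fit, 0.0237 in the ZNF783 fit and 0.0795 in this fit. Only the cyclin D1 gene was called: the difference for CCND1 was -0.24 (SE 0.043, adjusted p = 0.0159, edgeR), from an effect of -0.24 with ETS1 siRNA and 0.01 with ZNF783 siRNA. The background was 330 of 19594 genes, or 1.68% (1.11% higher, 0.577% lower), and 14.9% had an unadjusted p below 0.05. For CCNE1 the difference was 0.31 (SE 0.109, adjusted p = 0.196) and for CCND3 0.18 (SE 0.075, adjusted p = 0.287). For CDK4 (-0.16), CDK6 (0.18), CDK2 (-0.12) and CCNE2 (0.18) the approximate 95% intervals of the difference all include 0, the widest from -0.59 to 0.27 for CDK4. They were taken from the SE by the normal distribution, so they are narrower than the F test would give. Without ETS1 siRNA replicate 1 the differences of CCND1 (-0.25, adjusted p = 3.6e-08), CCND3 (0.21, adjusted p = 0.00567) and CCNE1 (0.32, adjusted p = 0.0253) were called. The CCND1 call was lost on leaving out ETS1 control replicate 1, ZNF783 siRNA replicate 1 or 2, or ZNF783 control replicate 1 or 3, at adjusted p up to 0.0692 and values between -0.25 and -0.22 over all 12 omissions.

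The balance within each pair of related genes was followed as a share of counts per kilobase, which does not depend on library scaling. The shares were not corrected for GC content. CDK6 (39.5% GC) and CCNE2 (36.9%) are poorer in GC than CDK4 (53.6%) and CCNE1 (52.9%). With ZNF783 siRNA neither CDK6 nor CCNE2 was called after the GC and length correction. The part of GC content in the shares was not tested. The share of CCND3 among the D-type cyclins was 1.46 ± 0.0335% with ZNF783 siRNA, against 1.82 ± 0.0428% in its controls (SD, n = 3 each). Every siRNA library lies below every control, and the exact 2-sided permutation p was 0.1, the smallest that 3 against 3 libraries allow. The share of CCND3 was 1.46 ± 0.0777% with ETS1 siRNA, against 1.37 ± 0.0221% in its controls (exact permutation p = 0.3). The groups overlap through ETS1 siRNA replicate 1 (1.37%), while replicates 2 and 3 (1.49% and 1.51%) lie above every control. The difference of 0.085 percentage points was 0.13 without replicate 1 (exact permutation p = 0.2, the smallest that 2 against 3 libraries allow).

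The share of CDK6 in the sum of CDK4 and CDK6 was 37.4%, 38.0% and 38.6% with ZNF783 siRNA, against 34.0%, 33.8% and 34.6% in its controls (exact permutation p = 0.1). The 2 groups are each tight and do not overlap. With ETS1 siRNA the share was 56.9%, 37.2% and 35.7%, against 33.1%, 34.1% and 32.0% in its controls (exact permutation p = 0.1). Here replicate 1 stands far above the others, and the difference of 10.2 percentage points was 3.38 without it. The share of CCNE2 in the sum of the E-type cyclins was 63.8 ± 1.83% with ZNF783 siRNA, against 58.5 ± 1.56% in its controls (exact permutation p = 0.1). It was 65.1 ± 5.42% with ETS1 siRNA, against 62.5 ± 2.26% in its controls (exact permutation p = 0.5); this difference of 2.59 percentage points was -0.519 without ETS1 siRNA replicate 1.

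**Figure D4:**
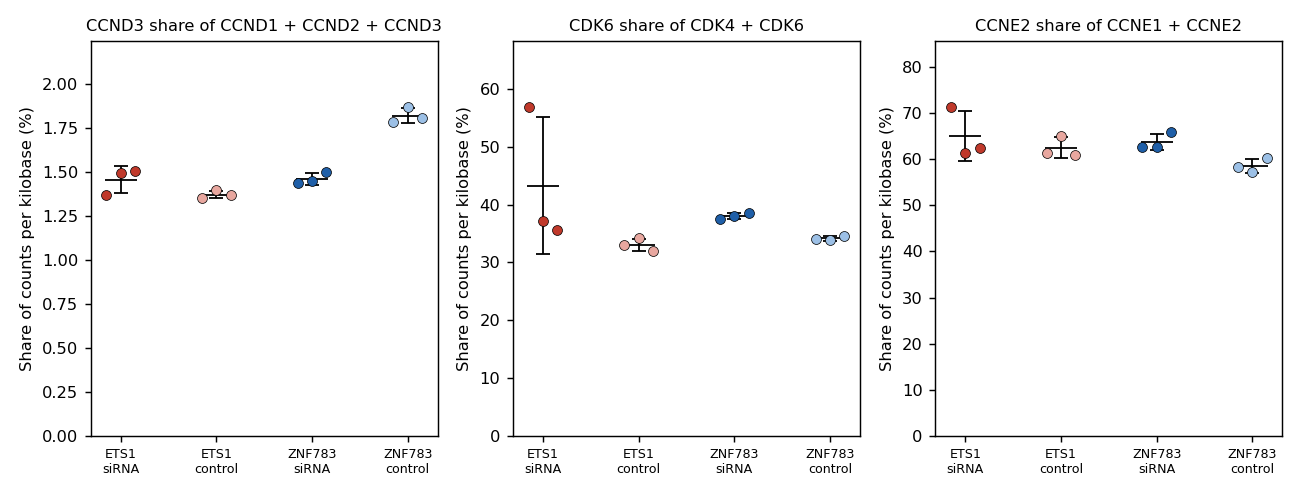
Share, in percent of counts per kilobase, of CCND3 among the D-type cyclins, of CDK6 in CDK4 plus CDK6 and of CCNE2 in CCNE1 plus CCNE2, for each library (points) with the mean and SD of each group (bars). The shares are not corrected for GC content. In the ZNF783 experiment the siRNA libraries lie below the controls for CCND3 and above them for CDK6 and CCNE2; in the ETS1 experiment the CDK6 share of replicate 1 (56.9%) stands apart.

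Promoter windows of RefSeq (GRCh38.p14) were read for the D-type cyclin gene and the kinases of the D-type cyclins that were called with ZNF783 siRNA. Of the 8 genes, 4 have entries in the table used (CCND3, CDK4, CDK6 and CCNE1), and the 250 bases before each start were searched on both strands for the E-box CACGTG, the ETS-type core CCGGAA and the E2F-type motifs TTTCGCGC, TTTGGCGC and TTTCCCGC. Capitals mark matches. The CDK4 window is chr12:57752311-57752560, the CCND3 window, 1 of 3 for that gene, is chr6:41941809-41942058, and the CDK6 window, 1 of 2, is chr7:92836574-92836823, each read 5′ to 3′ on the minus strand.
CDK4: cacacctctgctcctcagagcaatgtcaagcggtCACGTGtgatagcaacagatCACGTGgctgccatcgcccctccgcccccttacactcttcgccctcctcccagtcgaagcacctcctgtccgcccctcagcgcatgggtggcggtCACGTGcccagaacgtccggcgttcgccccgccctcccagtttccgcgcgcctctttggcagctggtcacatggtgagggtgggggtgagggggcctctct
CCND3: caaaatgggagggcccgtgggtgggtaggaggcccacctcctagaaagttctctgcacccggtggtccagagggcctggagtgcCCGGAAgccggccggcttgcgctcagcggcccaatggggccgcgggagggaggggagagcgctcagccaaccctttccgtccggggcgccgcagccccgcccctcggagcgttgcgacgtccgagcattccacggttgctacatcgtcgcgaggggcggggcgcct
CDK6: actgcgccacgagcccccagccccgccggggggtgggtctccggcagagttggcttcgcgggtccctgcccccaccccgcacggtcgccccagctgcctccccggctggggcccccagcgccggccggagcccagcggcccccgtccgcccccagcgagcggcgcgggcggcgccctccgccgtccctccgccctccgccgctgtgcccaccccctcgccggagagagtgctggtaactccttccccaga
The CDK4 window holds CACGTG 3 times, at 216, 196 and 101 bases before the start. Of 35116 RefSeq promoter windows of the same length, 6.34% hold it at least once and 0.0797% 3 times or more. The CCND3 window printed here holds CCGGAA once, 166 bases before the start, and 14.5% of all windows hold it. The other CCND3 windows hold none of the 5 motifs. The 14.5% counts single windows, so it understates how often a gene with 3 windows has a match. The E2F-type motifs, of which 2.32% of all windows hold at least 1, were not found in the windows of these 4 genes, and none of the 5 motifs was found in those of CDK6 and CCNE1. These are matches of letters in a window and show no binding.

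For the 5 genes called with ZNF783 siRNA, those whose profile over the 12 libraries lay nearest were named by the root mean square difference of log2 CPM, each set against its own controls, among 10065 genes averaging 10 CPM or more. CDK4 was nearest to NCAPH2, a condensin subunit gene (0.0364), and to the splicing factor gene SRSF9 (0.0367). CCND3 was nearest to the transcription factor gene SOX4 (0.0412) and the acetylcholine receptor gene CHRNB2 (0.0413). CDK6 was nearest to the splicing regulator gene MBNL1 (0.0295) and the actin regulator gene WASL (0.03), and CCNE2 to the microtubule growth gene SLAIN2 (0.0235) and to PHF3, whose product binds RNA polymerase (0.0282). CDK2 was nearest to AFG3L2 (0.0264) and PDHB (0.0276), which encode a protease and a pyruvate dehydrogenase subunit of mitochondria. The profiles of these neighbours follow the same libraries, ETS1 siRNA replicate 1 included. CCND1, called over all 6 libraries in neither experiment, was not compared in this way.

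A further 51 genes act around the G1 cyclins and kinases, and 50 of them were tested; the cyclin A1 gene CCNA1 was not. With ZNF783 siRNA 11 rose and 6 fell (34.0% called, against 25.1% of all genes), and the median log2 fold change was 0.04, against 0.00 over all genes. The E2F group held 4 of the 6 falls: E2F1, an activator of S-phase genes (-0.26, adjusted p = 1.0e-07), E2F4, a factor that acts mainly in repression (-0.23, adjusted p = 1.3e-05), E2F2 and the E2F partner gene TFDP1 (-0.17, adjusted p = 1.4e-05) fell, and 1 of the 10, E2F7, rose. E2F1 averaged 88.8 ± 2.02 CPM with ZNF783 siRNA, against 107 ± 0.953 CPM in its controls (SD, n = 3 each). All 4 tested genes of the later cyclins and their kinase rose, among them CCNA2, the S-phase cyclin (0.23, adjusted p = 5.1e-08), CCNB2 (0.20, adjusted p = 5.7e-06) and the mitotic cyclin gene CCNB1 (0.14, adjusted p = 0.000207). CCNA2 averaged 206 ± 2.98 CPM with ZNF783 siRNA, against 176 ± 2.87 CPM in its controls. So with ZNF783 siRNA the transcripts of the activator E2F1 and of the later cyclins did not move in the same direction.

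Among the brakes of the pathway, RB1 (0.18, adjusted p = 0.000136, edgeR) and the related pocket protein gene RBL2 (0.19, adjusted p = 1.0e-05) rose with ZNF783 siRNA, and 1 of the 7 CDK inhibitor genes, CDKN1B, which encodes p27 (0.16, adjusted p = 3.1e-05), rose. RB1 averaged 117 ± 5.52 CPM with ZNF783 siRNA, against 103 ± 3.99 CPM in its controls. Of 16 turnover genes 2 rose, led by the ubiquitin ligase scaffold gene CUL4B (0.20, adjusted p = 1.3e-05), and 1 fell, GSK3A, a kinase known to mark cyclins for turnover (-0.13, adjusted p = 0.0099). Of 6 assembly genes DMTF1 (0.13, adjusted p = 0.00142) rose and CDC37, the chaperone that delivers kinases such as CDK4 to HSP90 (-0.16, adjusted p = 0.000205), fell. The 4 genes of CDK activation were not called, CCNH, the cyclin of the CDK-activating kinase, coming nearest (0.08, adjusted p = 0.242). Corrected for GC content and length, a setting added for this list after the data were seen, 11 rose and 5 fell; E2F1 (-0.12, adjusted p = 0.00415) and CCNA2 (0.18, adjusted p = 4.7e-07) were called, and CDC37 (-0.04, adjusted p = 0.311) was not. The genes called were not all the same: 4 of the 7 CDK inhibitor genes then rose, with CDKN1A (0.08, adjusted p = 0.0214), CDKN2C (0.14, adjusted p = 0.00891) and CDKN2D (0.21, adjusted p = 0.00192) beside CDKN1B. Without the correction the log2 fold change of CDKN1A was -0.02 (adjusted p = 0.62). The kinase gene CDK1 (0.02, adjusted p = 0.633), DMTF1 (0.05, adjusted p = 0.261) and E2F7 (0.07, adjusted p = 0.226) were no longer called, which left 3 of the 4 later cyclin and kinase genes. In the fit of all 12 libraries only 2 of the 50 rose and 2 fell.

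With ETS1 siRNA 0 of the 50 were called by edgeR over all 6 libraries, and 17 had an unadjusted p below 0.05. The median was 0.02, against 0.01 over all genes. On these libraries DESeq2 called 3, and with limma-voom and quality weights 11 rose and 9 fell. In the fit of all 12 libraries 5 rose and 6 fell. Without ETS1 siRNA replicate 1, 12 rose and 13 fell (25 of 50, against 23.0% of all genes), again on 2 siRNA libraries against 3 controls. The pocket protein gene RBL1 (0.40, adjusted p = 9.2e-11) and the phosphatase gene CDC25A, which activates CDK2 (0.25, adjusted p = 3.2e-07), then rose. CDKN1A, which encodes the CDK inhibitor p21 (-0.39, adjusted p = 5.6e-16), and CUL4A, a scaffold of the ligase that degrades D-type cyclins and other proteins (-0.22, adjusted p = 2.8e-08), then fell. In the E2F group 2 rose and 2 fell, among them E2F1 (0.14, adjusted p = 0.00142), which rose, and E2F4 (-0.21, adjusted p = 3.9e-06), which fell. Of the 4 tested later cyclin and kinase genes 2 rose, CCNA2 (0.19, adjusted p = 5.4e-06) and CDK1 (0.18, adjusted p = 3.2e-06). E2F1 thus rose with them here, unlike with ZNF783 siRNA. Of the 16 turnover genes 6 fell and 3 rose. The smallest p-values after that of CUL4A belonged to DDB1 (-0.14, adjusted p = 6.7e-05) and FBXO31 (-0.19, adjusted p = 0.0002). CDKN1A averaged 199 ± 23.9 CPM over the 3 ETS1 siRNA libraries, against 279 ± 7.72 CPM in the controls, and RBL1 47.2 ± 5.24 against 33.3 ± 0.983 CPM. Corrected for GC content and length as well, RBL1 (0.34), CDC25A (0.29), CDKN1A (-0.29), CUL4A (-0.27) and DDB1 (-0.10) were still called, FBXO31 (-0.09, adjusted p = 0.0539) was not, and 12 rose and 10 fell in all. E2F1 (0.27), E2F4 (-0.10), CCNA2 (0.16) and CDK1 (0.08) were also called in that setting. With the correction over all 6 libraries, 0 of the 50 were called.

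**Figure D5:**
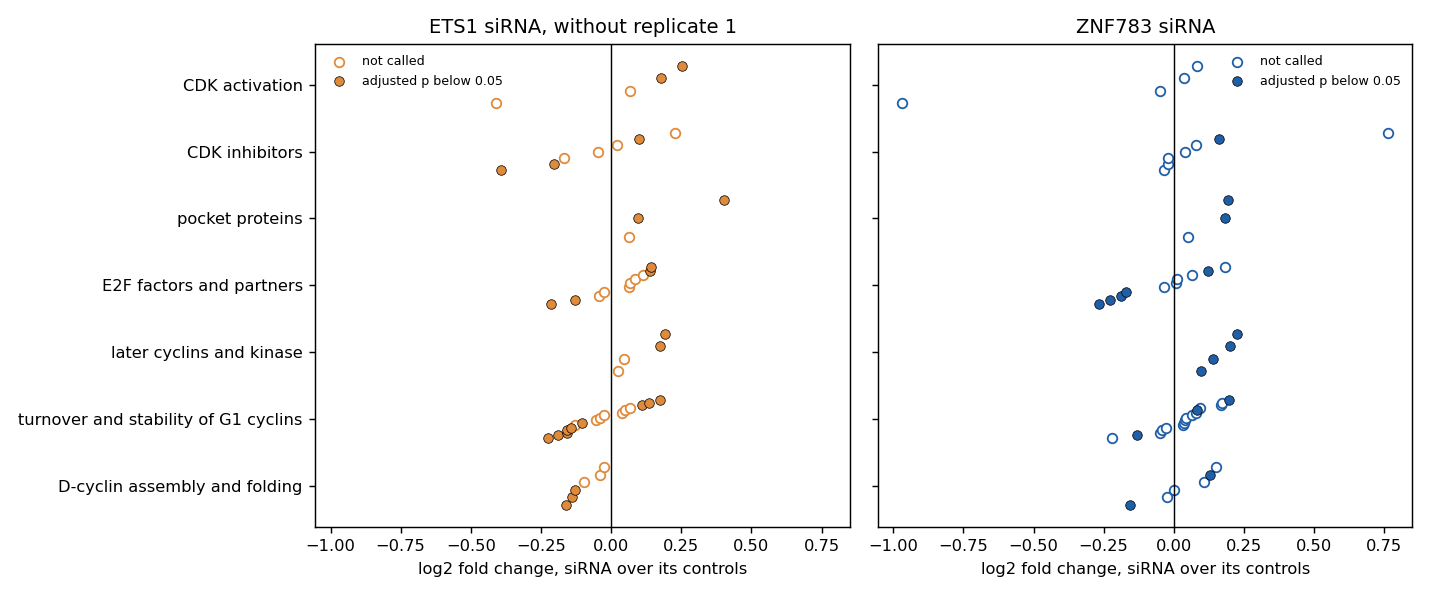
Log2 fold change (siRNA over its own controls) of the 50 tested genes around the G1 cyclins, grouped by role, for ETS1 siRNA without replicate 1 (left) and ZNF783 siRNA (right); filled points have an adjusted p below 0.05. In the ZNF783 panel the E2F group holds 4 filled points below 0 and the later cyclins 4 above 0; in the ETS1 panel 12 filled points lie above 0 and 13 below.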

How the data were processed

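RNA was sequenced in 12 libraries of 22Rv1 cells, made from total RNA with a directional kit, per the labels' protocols. The authors deposited raw counts per gene, 1 table for each siRNA with its controls, made with featureCounts 2.0.1 on Ensembl annotation release 107 without a strand option, per the file headers. The build hg38 comes from the submitters' processing notes, while no aligner version was given in the sources used here. Groups come from the labels, and 61757 of 61860 gene identifiers (99.8%) were matched to a symbol.

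Each siRNA was compared with its own controls by edgeR 4.0.16 (R 4.3.3) with the default expression filter, TMM scaling, a robust quasi-likelihood F test and Benjamini-Hochberg adjustment over all genes tested. The 2 effects were compared in 1 fit of the 12 libraries. Shares were compared by exact permutation tests, which cannot give a p below 0.1 with 3 libraries against 3. The procedure was tested on simulated counts, with larger changes than those of the G1 cyclin and kinase genes. The simulated libraries had less spread than those of the ETS1 experiment and held no outlying library. The simulation therefore does not show how well changes as small as these are found. Alternatives were DESeq2 1.42.0, limma 3.58.1 (voom with quality weights), other scalings and filters, the replicate number as a block, a correction for GC content and length, and leaving out each library. Gene lengths, GC content and coordinates come from GENCODE release 29 (GRCh38); a length column had been planned for, but the deposited tables hold none. Lengths are of merged exons, and GC content is that of the longest transcript of each gene. Floors cover counting error only, since PCR copies are not independent molecules.

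Replicates of a group were compared by a chi-square test of their counts, and no pair agreed within sampling noise, so none was merged. One gene of the luminal marker list is not reported here and was left out of its sum. All 8 genes are named in every comparison, and of each group of pathway genes mainly the 3 with the smallest p. The genes, lists and the choice of ETS1 siRNA replicate 1 as the library to leave out with the correction were made with earlier results of these data known.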

Additional observations from a re-analysis of the deposited data

Results flagged for a closer look

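For 3 genes the effect of ETS1 siRNA differed from that of ZNF783 siRNA by the test of the difference itself, 1 of the 7 tested G1 cyclin and kinase genes and 2 of the 50 around them, against 330 of all 19594 genes (1.68%). The siRNAs and their experiments cannot be told apart in this test. For CCND1 the difference was -0.24 (SE 0.043, adjusted p = 0.0159, edgeR, 12 libraries): all 3 ETS1 siRNA libraries lay below their controls, and the ZNF783 siRNA libraries overlapped theirs. For CDKN1A, the p21 gene, it was -0.44 (SE 0.095, adjusted p = 0.0335), with 172 to 216 CPM with ETS1 siRNA, against 270 to 286 CPM in its controls, and 234 to 238 CPM with ZNF783 siRNA, against 232 to 245 CPM in its controls. For CUL4A, the ubiquitin ligase scaffold gene, it was -0.27 (SE 0.057, adjusted p = 0.0296), with 188 to 203 CPM with ETS1 siRNA, against 228 to 238 CPM in its controls, and 222 to 224 CPM with ZNF783 siRNA, against 210 to 221 CPM in its controls. The differences of CDKN1A and CUL4A were called under 8 of 9 other settings, but only in the 3 of 12 omissions that left out an ETS1 siRNA library; leaving out any control or any ZNF783 siRNA library gave adjusted p up to 0.106 for CDKN1A and up to 0.103 for CUL4A. Their values over these 12 omissions ran from -0.51 to -0.37 for CDKN1A and from -0.30 to -0.25 for CUL4A.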

How the results depend on the processing

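Calls depended on the tool and on single libraries more than on scaling. With ETS1 siRNA, 0 of the 7 genes and 9 of all genes were called; all genes called numbered 253 with no low-count filter, 734 with DESeq2, 3734 with limma-voom and quality weights, 27 with the GC and length correction, 1875 in the fit of all 12 libraries and 3910 with the correction and without ETS1 siRNA replicate 1. Of the 7 genes, 1 was called with DESeq2, 2 with limma-voom, 1 in the fit of 12 libraries and 2 with the correction and without that replicate. Leaving out 1 library at a time gave 0 to 5 of the 7 and 0 to 4649 of all genes, the highest without ETS1 siRNA replicate 1. With ZNF783 siRNA, DESeq2 called 2718 genes and the fit of 12 libraries 824, against 4428. Of the 7 genes, 5 in the main setting, 3 were called with no filter, with DESeq2, with limma-voom and with the GC and length correction, 1 in the fit of 12 libraries, and 2 to 5 on leaving out 1 library. For the difference between the effects, 330 genes and 1 of the 7 were called; the counts were 978 with no filter, 663 and 2409 with DESeq2 and limma-voom, 712 with the correction, 3162 with the correction and without ETS1 siRNA replicate 1, and 140 to 2735 on leaving out 1 library. Of the 7, 3 were called with limma-voom, 2 with the correction, 3 with the correction and without that replicate, and 0 to 3 on leaving out 1 library. The cause of these shifts was not tested.

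The values whose sign turned were not called over all libraries. The log2 fold change of CDK2 with ETS1 siRNA was 0.0093 with limma-voom, 0.019 with the correction, 0.053 with the correction and without replicate 1, and -0.11 to 0.011 on leaving out 1 library. CCND1 with ZNF783 siRNA was -0.0013 in the fit of 12 libraries. The difference for CDK4 was 0.044 with limma-voom, 0.040 with the correction and without ETS1 siRNA replicate 1, and -0.29 to 0.031 on leaving out 1 library, and that for CCNE2 was -0.028 with the correction and without that replicate and -0.012 to 0.27 on leaving out 1 library. The difference in the CCNE2 share with ETS1 siRNA ran from -0.519 to 4.41 percentage points on leaving out 1 library.

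The labels state no pairing of samples with equal replicate numbers. The correlations of their deviations were 0.0959, -0.242 and 0.316 in the ETS1 experiment and -0.0833, -0.0459 and -0.0618 in the ZNF783 experiment. Deviations were taken from the mean of only 3 libraries, and ETS1 siRNA replicate 1 stood apart. These correlations therefore cannot show whether samples were paired. With the replicate block 0 genes were called with ETS1 siRNA, and 54 genes and 0 of the 7 for the difference, where CCND1 had -0.24 (adjusted p = 0.111); with ZNF783 siRNA the block kept the calls of CCND3, CDK4, CDK6, CDK2 and CCNE2. CCNE1, at 171 to 850 counts per library, is the gene whose precision depth limits most.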
